A study of Mus musculus with 36 samples.

Results

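The transcripts described here are those of 35 genes that mark T lymphocytes and natural killer (NK) lymphocytes, 35 of the 39017 genes in a count table of the mouse cochlea. The genes were taken as a named list: chains of the T cell receptor, its coreceptors and signalling proteins, surface and cytokine receptors, transcription factors, cytotoxic granule proteins and NK receptors. Their Ensembl identifiers were matched to mouse symbols of GENCODE M21, and all 35 had a row. The libraries came from whole cochleae of CBA/Sca mice aged 12 weeks that had been adrenalectomized (ADX, 18 libraries) or sham operated (sham, 18 libraries). Sampling was every 4 h from CT04 to CT24 of circadian time, and each of the 6 times holds 3 ADX and 3 sham libraries. No source used here states a genotype or any hormone replacement, nor the lighting, the number of cochleae per library or whether the 3 libraries of a group came from separate animals. The p-values therefore measure only the spread between these libraries. The series title gives the purpose as finding circadian genes of the cochlea that depend on glucocorticoids.

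T lymphocytes recognise peptides on MHC molecules through an antigen receptor whose variable chains signal through the CD3 and zeta chains, and NK lymphocytes use a set of activating and inhibitory receptors instead. Cytotoxic T cells and NK cells share a killing machinery of perforin and granzymes. Corticosterone, the main glucocorticoid of mice, is made in the adrenal cortex, and glucocorticoids are known to move lymphocytes between blood and tissues and to kill thymocytes at high levels. In bulk RNA, fewer cells of a type and less RNA per cell cannot be told apart, and this holds for every difference below.

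The libraries held 20351081 to 28947793 counts in ADX cochleae and 18999408 to 28995197 counts in sham cochleae. Of 10 defining markers of the cochlea, such as Coch, Otos, Otog and Myo7a, none was at 0 in any library. Several libraries stood apart in genes of other tissue. The 3 libraries with the most skeletal muscle transcript were ADX CT12 replicate 1, ADX CT16 replicate 2 and ADX CT20 replicate 3. Growth hormone (Gh), a pituitary transcript, exceeded 50 CPM in ADX CT24 replicates 1 and 2, sham CT08 replicates 2 and 3 and sham CT16 replicate 3. The tests were repeated without each set. The column names gave a time 1 h earlier than the sample labels for 30 of the 36 columns, and the labels' times were used.

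Promoter sequence is shown for 3 neighbouring genes of the CD3 complex, because Cd3e and Cd3g passed the rhythm test described below and Cd3d did not. It is also shown for the cytotoxic gene Nkg7, which alone among the 23 members with a promoter sequence held a T-box motif. Cd3g (chr9:44969572-44980431, minus strand), Cd3d (chr9:44981786-44987339, plus strand) and Cd3e (chr9:44998740-45009627, minus strand) lie next to each other, and Cd3g and Cd3d start back to back. The 4 windows, from RefSeq on build GRCm38.p6, run 5′ to 3′ over 300 bases that span the start of the gene. They are chr9:45009562-45009861 on the minus strand for Cd3e, chr9:44980382-44980681 on the minus strand for Cd3g, chr9:44981536-44981835 on the plus strand for Cd3d and chr7:43436888-43437187 on the plus strand for Nkg7. Capitals mark the match to the T-box motif TCACACCT, here read on the other strand, and all other bases are in lower case.
Cd3e: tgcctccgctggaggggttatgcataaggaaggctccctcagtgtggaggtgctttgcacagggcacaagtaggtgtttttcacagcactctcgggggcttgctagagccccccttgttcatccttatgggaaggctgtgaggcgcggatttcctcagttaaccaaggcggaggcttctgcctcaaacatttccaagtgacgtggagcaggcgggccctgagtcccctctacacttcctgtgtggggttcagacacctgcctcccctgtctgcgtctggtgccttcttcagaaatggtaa
Cd3g: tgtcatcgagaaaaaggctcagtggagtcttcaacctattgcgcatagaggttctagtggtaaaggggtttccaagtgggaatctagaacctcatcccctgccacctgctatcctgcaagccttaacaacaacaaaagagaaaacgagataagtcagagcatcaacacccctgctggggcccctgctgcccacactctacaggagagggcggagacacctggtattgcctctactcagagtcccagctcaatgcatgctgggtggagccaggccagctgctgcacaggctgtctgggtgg
Cd3d: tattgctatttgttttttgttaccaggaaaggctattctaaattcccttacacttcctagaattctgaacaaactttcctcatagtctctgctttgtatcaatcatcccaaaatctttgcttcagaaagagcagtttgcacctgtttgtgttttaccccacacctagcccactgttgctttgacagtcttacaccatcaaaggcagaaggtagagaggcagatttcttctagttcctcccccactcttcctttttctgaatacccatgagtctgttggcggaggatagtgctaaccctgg
Nkg7: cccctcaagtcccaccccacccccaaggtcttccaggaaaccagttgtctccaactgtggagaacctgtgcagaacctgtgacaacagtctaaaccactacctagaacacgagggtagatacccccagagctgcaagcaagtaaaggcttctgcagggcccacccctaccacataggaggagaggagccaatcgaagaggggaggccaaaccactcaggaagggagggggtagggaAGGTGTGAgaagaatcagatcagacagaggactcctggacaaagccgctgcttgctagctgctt

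The table of promoters held 32 windows for 23 of the 35 genes, among 32851 windows in all, and motifs were searched in them on both strands. The E-box CACGTG occurred in 7.15% of all windows and in 3 of the 32 member windows, those of Lat, Lef1 and Zap70. A T-box match occurred in 1.28% of all windows, and the TCF/LEF motif CTTTGAA in 5.14%, among them that of Gzmk. The ETS motif ACCGGAAGT occurred in 1.1% of windows, among them that of Tcf7. The D-box TTATGTAA (0.938% of windows) and the palindromic glucocorticoid response element (0.00913%) had no match in a window of the members. A match is a string of letters, and its absence says only that these letters are not in that window.

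The members spanned a wide range of levels. Per kilobase of the deposited gene length and averaged over the 36 libraries, the level was 66.7 CPM per kb for Thy1, 21.9 for Nkg7, 14.1 for Lat, 13.5 for Cd2, 11.0 for Lck, 10.3 for Il7r and 9.32 for Cd4. The chains that only T cells assemble into a receptor were lower, at 6.10 CPM per kb for Trac, 5.43 for Cd3d, 3.298 for Cd3g and 1.47 for Cd3e. Thy1 is also made by neurons and fibroblasts, Il7r and Lef1 also by B cell precursors, mouse Cd2 also by B cells and Lat also by platelets and mast cells, so that these transcripts need not come from T or NK cells. Gzmk, a granzyme, was lowest at 0.221 CPM per kb, with 0 to 11 counts per library, and it was the only member that the filter on low counts removed. The other 34 members were tested among 22556 genes.

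The main pattern in these genes was a fitted 24 h curve with a peak in the later part of the sampled day. The sampled times spanned a single cycle, so whether any change recurs every 24 h was not tested. A cosine fit to these times cannot separate a recurring rhythm from a difference between collection times. Rhythm in this report means only that the fit passed its test. In the mean of both statuses, 32.5% of all tested genes passed (edgeR quasi-likelihood test of a 24 h cosine, adjusted p under 0.05). The members were chosen with earlier results of these data known. Of a second list of T and NK genes, described below, 13 of the 44 tested passed. Of the 34 tested members, 19 passed, or 55.9%. They included 5 of the 7 receptor chains, the CD8 coreceptor chains Cd8a and Cd8b1, 4 of the 5 tested cytotoxic granule genes, and the NK receptors Ncr1 and Klre1. The fitted peaks of 17 of the 19 lay between 17.0 and 21.6 h, within a window of 16 to 22 h that was chosen after the peaks were seen. Of all genes that passed the same test, 37.6% peaked in that window. The exceptions were Tcf7 at 22.5 h and Thy1 at 9.85 h. The fitted difference between peak and trough had a median of 0.72 on the log2 scale in the 19 members. In them it ranged from 0.23 to 1.16, and over all genes that passed its median was 0.26. A gene with a larger standard error (SE) needs a larger difference to pass. That SE was 0.20 for Klre1 at a mean of 0.96 CPM and 0.08 for Thy1 at 116 CPM. The more abundant Thy1, Tcf7 and Nkg7 had differences of 0.23, 0.25 and 0.42. Genes of like level were not compared, so the gap between 0.72 and 0.26 cannot be read as particular to the members. Leaving out each of the 36 libraries in turn gave 18 to 21 members. In these 36 fits 18 of the 19 passed each time, and Thy1 passed in 17.

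**Figure D1:**
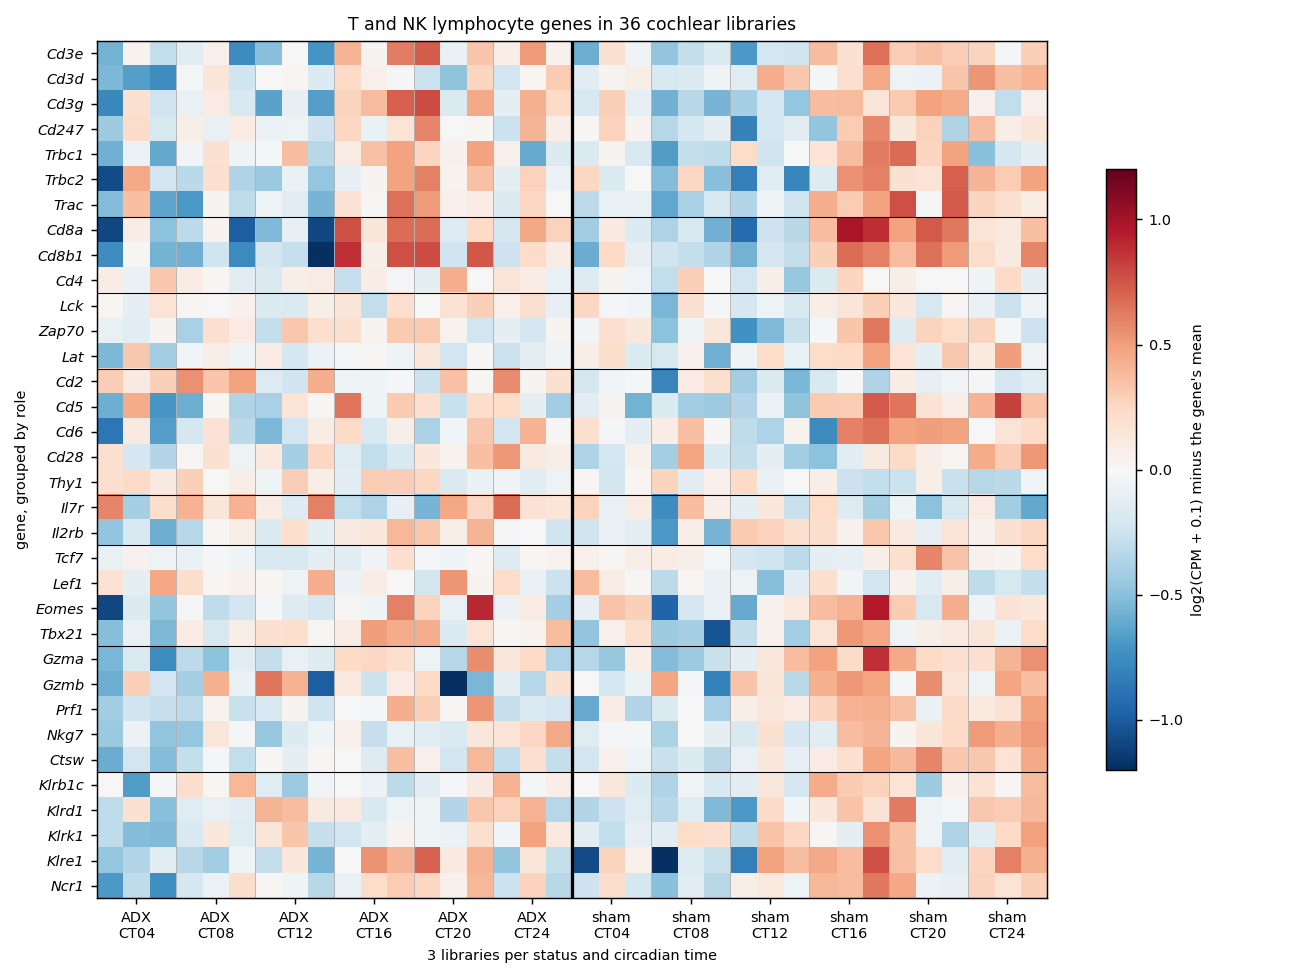
Levels of the 34 tested members in the 36 libraries. Each row is a gene, grouped by role with lines between roles, and each column is a library, ADX on the left and sham on the right, in order of circadian time; colour is log2(CPM + 0.1) minus the gene's mean over all libraries. Most receptor chain, CD8 and granule rows turn from blue at CT04 to CT12 to red at CT16 and CT20 on both sides, whereas the rows of Cd4, Lck, Lef1 and Thy1 do not.

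The antigen receptor chains Cd3e and Cd3g, which carry the signalling motifs of the complex, had lower means from CT04 to CT12 than at CT16 and CT20 in both statuses. In ADX cochleae Cd3e stood at 1.34, 2.09 and 1.65 CPM at CT04, 1.85, 2.13 and 1.16 at CT08, 1.41, 2.04 and 1.21 at CT12, 2.74, 2.08 and 3.18 at CT16, 3.43, 1.92 and 2.58 at CT20, and 2.16, 2.95 and 2.11 at CT24. In sham cochleae it stood at 1.33, 2.33 and 1.97 CPM at CT04, 1.44, 1.65 and 1.79 at CT08, 1.22, 1.75 and 1.71 at CT12, 2.67, 2.33 and 3.28 at CT16, 2.53, 2.63 and 2.52 at CT20, and 2.48, 2.01 and 2.51 at CT24. The highest Cd3e value lay at CT20 in ADX cochleae and at CT16 in sham cochleae, and the statuses overlapped at every time. These values rest on 24 to 91 counts of Cd3e per library. Its fitted peak-to-trough difference was 0.83 ± 0.20 (log2, SE) in ADX cochleae, with a peak at 19.8 ± 0.928 h and an adjusted p of 0.0197, and 0.81 ± 0.20 in sham cochleae, with a peak at 19.9 ± 0.947 h and an adjusted p of 0.0165. Cd3g was measured at 1.03, 2.09 and 1.53 CPM at CT04, 1.71, 1.96 and 1.60 at CT08, 1.14, 1.70 and 1.12 at CT12, 2.22, 2.401 and 3.07 at CT16, 3.21, 1.61 and 2.54 at CT20, and 1.68, 2.48 and 2.18 at CT24 in ADX cochleae. Its sham libraries held 1.59, 2.25 and 1.70 CPM at CT04, 1.19, 1.43 and 1.21 at CT08, 1.36, 1.57 and 1.296 at CT12, 2.39, 2.41 and 2.05 at CT16, 2.29, 2.59 and 2.52 at CT20, and 1.91, 1.47 and 1.92 at CT24. All 3 CT16 libraries exceeded all 3 CT12 libraries of their own status, and at CT08 all ADX libraries lay above all sham libraries. The share of all genes that separate CT16 from CT12 in this way was not counted, here or for the genes below. The Cd3g difference between peak and trough was 0.77 ± 0.21 in ADX cochleae (peak 19.6 ± 1.05 h, adjusted p = 0.0391) and 0.82 ± 0.22 in sham cochleae (peak 19.997 ± 0.982 h, adjusted p = 0.0211).

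The constant regions of the receptor's alpha and beta chains, Trac, Trbc1 and Trbc2, also had higher means at CT16 and CT20 than from CT04 to CT12 in both statuses, and at CT24 Trbc1 was back within the range of its CT04 to CT12 means. Trac in ADX cochleae was at 1.66, 3.14 and 1.53 CPM at CT04, 1.47, 2.48 and 1.94 at CT08, 2.32, 2.19 and 1.61 at CT12, 2.74, 2.45 and 3.89 at CT16, 3.51, 2.54 and 2.58 at CT20, and 2.16, 2.91 and 2.42 at CT24. Sham libraries held Trac at 1.93, 2.29 and 2.28 CPM at CT04, 1.54, 1.83 and 2.11 at CT08, 1.88, 2.33 and 2.04 at CT12, 3.33, 3.03 and 3.43 at CT16, 4.23, 2.41 and 4.12 at CT20, and 2.94, 2.79 and 2.58 at CT24. All CT16 libraries again lay above all CT12 libraries of their status, and ADX and sham libraries overlapped at every time. The Trac rhythm passed in sham cochleae, with a difference of 0.99 ± 0.19 and an adjusted p of 0.00123, and its ADX values were 0.66 ± 0.19 and 0.0504. Trbc1 averaged 1.28, 1.76, 1.76, 2.17, 2.10 and 1.47 CPM from CT04 to CT24 in ADX cochleae and 1.59, 1.27, 1.72, 2.29, 2.44 and 1.41 CPM in sham cochleae (SD 0.143 to 0.454, n = 3 per mean). Trbc2 averaged 1.70, 1.71, 1.502, 2.13, 2.45 and 1.96 CPM from CT04 to CT24 in ADX cochleae and 1.95, 1.63, 1.27, 2.48, 2.50 and 2.54 CPM in sham cochleae (SD 0.164 to 0.896, n = 3 per mean). Trbc1 passed in both statuses, with fitted peaks at 16.01 h in ADX and 17.8 h in sham cochleae, and Trbc2 passed in sham cochleae with an adjusted p of 0.0266 against 0.230 in ADX cochleae. The transcripts of Trbc1 and Trbc2 are 95.6% identical over 521 aligned bases, so that reads may have been split between them, and the level of either is uncertain.

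Cd3d, the delta chain of the same complex and the neighbour of Cd3g, did not pass the rhythm test: its adjusted p was 0.147 in the mean of both statuses. Cd3d averaged 4.45, 6.88, 6.82, 7.4996, 6.42 and 7.27 CPM from CT04 to CT24 in ADX cochleae and 6.98, 6.39, 8.26, 8.21, 7.42 and 9.56 CPM in sham cochleae (SD 0.309 to 1.76, n = 3 per mean). All ADX libraries lay below all sham libraries at CT04 and at CT24. Over the 6 times its log2 fold change, ADX minus sham, was -0.26 ± 0.07 (SE) with an adjusted p of 0.0599, just outside the threshold. DESeq2 gave an adjusted p of 0.0147 for Cd3d. The edgeR value was 0.0398 without the 3 muscle-rich libraries, and without the libraries with over 50 CPM of Gh the fold change was -0.18 with an adjusted p of 0.432. Cd247 averaged 1.59, 1.76, 1.57, 1.88, 2.04 and 1.86 CPM from CT04 to CT24 in ADX cochleae and 1.87, 1.47, 1.33, 1.999, 1.78 and 1.998 CPM in sham cochleae (SD 0.119 to 0.719, n = 3 per mean). Cd247, the zeta chain, had no rhythm past the threshold in ADX, in sham or in their mean.

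**Figure D2:**
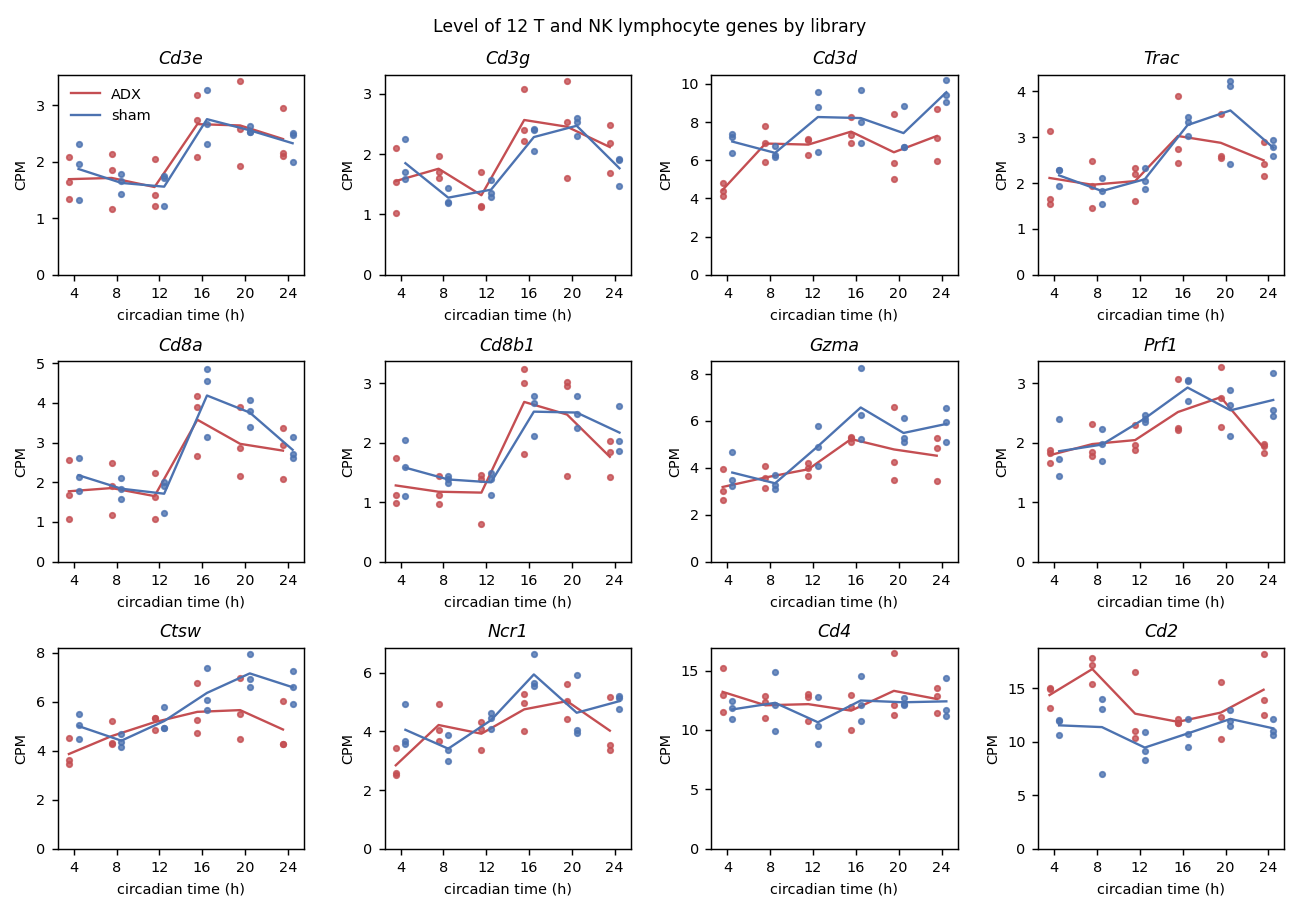
CPM of 12 members by circadian time (h). Points are single libraries, lines join the means of 3, and each gene's axis starts at 0; ADX is shown left of sham at each time. Cd3e, Cd3g, Trac, Cd8a and Cd8b1 step up between CT12 and CT16 in both statuses, Cd4 stays between 8.84 and 16.5 CPM, and Cd2 lies higher in ADX cochleae at CT04, CT08 and CT24.

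Among the coreceptors, the CD8 chains had the widest swings of all members and Cd4 had none that passed. CD8 marks T cells that recognise MHC class I and CD4 those that recognise MHC class II. Cd8a reached 1.07, 2.56 and 1.68 CPM at CT04, 1.92, 2.48 and 1.16 at CT08, 1.64, 2.24 and 1.08 at CT12, 4.17, 2.67 and 3.89 at CT16, 3.89, 2.16 and 2.86 at CT20, and 2.09, 3.37 and 2.94 at CT24 in ADX cochleae. The sham libraries contained Cd8a at 1.78, 2.61 and 2.14 CPM at CT04, 1.84, 2.10 and 1.58 at CT08, 1.22, 2.02 and 1.90 at CT12, 3.15, 4.86 and 4.55 at CT16, 3.40, 4.07 and 3.80 at CT20, and 2.71, 2.62 and 3.13 at CT24. In each status all CT16 libraries exceeded all CT12 libraries, while ADX and sham libraries overlapped at every time. The fitted curve rose 2.07-fold between trough and peak in ADX cochleae (log2 difference 1.05 ± 0.26, peak 19.27 ± 0.944 h, adjusted p = 0.0222) and 2.37-fold in sham cochleae (1.25 ± 0.26, peak 19.4 ± 0.776 h, adjusted p = 0.00275). Cd8b1, which pairs with Cd8a on conventional CD8 T cells and lies beside it on chromosome 6, was at 0.985, 1.73 and 1.12 CPM at CT04, 1.12, 1.44 and 0.970 at CT08, 1.46, 1.397 and 0.628 at CT12, 3.23, 1.81 and 3.003 at CT16, 3.02, 1.44 and 2.95 at CT20, and 1.43, 2.02 and 1.83 at CT24 in ADX cochleae. For sham libraries the Cd8b1 values were 1.10, 2.04 and 1.60 CPM at CT04, 1.44, 1.39 and 1.32 at CT08, 1.13, 1.48 and 1.39 at CT12, 2.11, 2.78 and 2.66 at CT16, 2.25, 2.78 and 2.48 at CT20, and 2.02, 1.86 and 2.62 at CT24. The step between CT12 and CT16 was again free of overlap in both statuses, with no share of all genes to set beside it. Its fold between trough and peak was 2.47 in ADX cochleae (adjusted p = 0.00165) and 2.04 in sham cochleae (adjusted p = 0.00849), and in the mean of both statuses it had the smallest adjusted p of the members, 1.44e-05. Cd4 averaged 13.2, 12.07, 12.17, 11.6, 13.3 and 12.6 CPM from CT04 to CT24 in ADX cochleae and 11.7, 12.28, 10.6, 12.5, 12.33 and 12.4 CPM in sham cochleae (SD 0.347 to 2.80, n = 3 per mean). The Cd4 rhythm had an adjusted p of 0.694 in ADX and 0.732 in sham cochleae. In the mouse, some dendritic cells and macrophages also express Cd4.

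None of the 3 proximal signalling genes passed a rhythm test in either status or in the mean (lowest of the 9 adjusted p-values 0.132, for Lat in sham cochleae). Lck averaged 12.7, 12.6, 11.7, 12.7, 13.9 and 12.9 CPM from CT04 to CT24 in ADX cochleae and 13.1, 11.6, 11.22, 14.0, 12.32 and 11.4 CPM in sham cochleae (SD 0.245 to 2.89, n = 3 per mean). Lck is the kinase that phosphorylates the CD3 chains, Zap70 the kinase recruited to them and Lat the scaffold that Zap70 phosphorylates. Zap70 averaged 1.78, 1.84, 1.999, 2.13, 1.94 and 1.74 CPM from CT04 to CT24 in ADX cochleae and 2.002, 1.71, 1.29, 2.38, 2.03 and 1.88 CPM in sham cochleae (SD 0.110 to 0.548, n = 3 per mean). Lat averaged 15.4, 17.2, 16.5, 17.0, 16.9 and 15.7 CPM from CT04 to CT24 in ADX cochleae and 17.8, 14.8, 17.7, 21.5, 18.9 and 19.9 CPM in sham cochleae (SD 0.388 to 5.38, n = 3 per mean). Lat lay lower in all ADX than in all sham libraries at CT16, with a log2 fold change of -0.34 ± 0.17 and an adjusted p of 0.636 there.

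Of the 5 other surface proteins, Cd5 and Thy1 passed the shared rhythm test. Cd5 averaged 1.27, 1.18, 1.41, 1.86, 1.54 and 1.38 CPM from CT04 to CT24 in ADX cochleae and 1.26, 1.14, 1.18, 2.06, 1.85 and 2.17 CPM in sham cochleae (SD 0.132 to 0.649, n = 3 per mean). Cd5, a scavenger receptor family member that restrains receptor signalling, peaked at 20.4 ± 0.844 h in sham cochleae with a difference of 1.01 ± 0.23 (adjusted p = 0.00756), and its ADX curve had a difference of 0.54 ± 0.23 (adjusted p = 0.238). Cd6 averaged 0.955, 1.21, 1.12, 1.35, 1.304 and 1.39 CPM from CT04 to CT24 in ADX cochleae and 1.33, 1.47, 1.12, 1.63, 1.87 and 1.44 CPM in sham cochleae (SD 0.0164 to 0.781, n = 3 per mean). Its relative Cd6 had no rhythm that passed, with an adjusted p of 0.160 in the mean of both statuses. Cd28 averaged 1.98, 2.21, 2.16, 1.84, 2.43 and 2.56 CPM from CT04 to CT24 in ADX cochleae and 1.89, 2.16, 1.76, 1.92, 2.32 and 2.90 CPM in sham cochleae (SD 0.103 to 0.740, n = 3 per mean). The costimulatory receptor Cd28 was close to the threshold in the mean of both statuses, with a peak at 23.6 h and an adjusted p of 0.0505, and DESeq2 called it. Thy1 averaged 130.1, 125, 124, 129, 115 and 109 CPM from CT04 to CT24 in ADX cochleae and 110.2, 121, 119.7, 104, 104 and 98.1 CPM in sham cochleae (SD 3.17 to 21.1, n = 3 per mean). Thy1, the most abundant member, ran in the other direction from the receptor chains, with a fitted peak at 9.85 ± 1.23 h and a shallow difference of 0.23 ± 0.08 (adjusted p = 0.0466).

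Il2rb, the beta chain of the receptors for interleukin 2 and interleukin 15 that NK and memory CD8 T cells carry, was rhythmic in ADX cochleae. Il2rb averaged 6.39, 8.06, 8.39, 9.87, 10.3 and 8.03 CPM from CT04 to CT24 in ADX cochleae and 7.63, 6.63, 10.2, 9.74, 8.84 and 9.50 CPM in sham cochleae (SD 0.412 to 2.02, n = 3 per mean). The ADX difference was 0.58 ± 0.14 with a peak at 17.1 ± 0.930 h (adjusted p = 0.0205), and the sham difference was 0.43 ± 0.14 with a peak at 17.5 ± 1.25 h (adjusted p = 0.0836). Il7r averaged 36.6, 40.4, 37.3, 27.0, 34.7 and 41.0 CPM from CT04 to CT24 in ADX cochleae and 34.4, 31.5, 30.6, 30.2, 27.4 and 26.5 CPM in sham cochleae (SD 2.67 to 11.9, n = 3 per mean). Il7r, the receptor for the survival cytokine interleukin 7, had no rhythm past the threshold.

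Of the transcription factors, the T-box factors Eomes and Tbx21 of effector CD8 T and NK cells passed the shared test, as did Tcf7, and Lef1 did not. Eomes averaged 1.44, 1.86, 1.94, 2.49, 2.87 and 1.96 CPM from CT04 to CT24 in ADX cochleae and 2.44, 1.63, 1.96, 3.28, 2.47 and 2.26 CPM in sham cochleae (SD 0.133 to 1.07, n = 3 per mean). Tbx21 averaged 1.15, 1.504, 1.67, 1.96, 1.71 and 1.69 CPM from CT04 to CT24 in ADX cochleae and 1.46, 0.965, 1.301, 2.01, 1.56 and 1.63 CPM in sham cochleae (SD 0.0884 to 0.369, n = 3 per mean). The shared peaks were at 18.3 ± 0.926 h for Eomes and 18.3 ± 0.866 h for Tbx21, with adjusted p-values of 0.00555 and 0.00340. Tcf7 and Lef1 are related factors of T cell development. Tcf7 held 17.95, 19.8 and 18.4 CPM at CT04, 18.1, 18.9 and 18.4 at CT08, 16.8, 16.9 and 17.6 at CT12, 17.5, 18.5 and 22.05 at CT16, 18.9, 18.6 and 19.33 at CT20, and 17.2, 19.5 and 19.7 at CT24 in ADX cochleae. The sham values of Tcf7 were 19.9, 19.4 and 20.196 CPM at CT04, 20.31, 20.12 and 19.0 at CT08, 16.6, 16.16 and 15.4 at CT12, 17.6, 17.9 and 20.03 at CT16, 21.9, 28.7 and 24.23 at CT20, and 19.9, 19.6 and 22.4 at CT24. At CT20 all 3 ADX libraries lay below all 3 sham libraries, and the highest Tcf7 value of the 36 libraries was a sham library at CT20. The Tcf7 rhythm passed in sham cochleae (difference 0.41 ± 0.09, peak 22.6 ± 0.815 h, adjusted p = 0.00455) and had a difference of 0.10 ± 0.09 and an adjusted p of 0.739 in ADX cochleae, but the test of the difference between the 2 curves gave an adjusted p of 0.9997. Lef1 averaged 25.5, 23.8, 24.8, 22.4, 24.7 and 21.9 CPM from CT04 to CT24 in ADX cochleae and 25.1, 20.5, 19.06, 22.03, 22.2 and 18.6 CPM in sham cochleae (SD 0.773 to 6.81, n = 3 per mean). The Lef1 rhythm had adjusted p-values of 0.922 in ADX and 0.872 in sham cochleae. Tcf7 overlaps an antisense gene and a long noncoding gene in the annotation.

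Of the 5 tested cytotoxic granule genes, Gzma, Prf1, Nkg7 and Ctsw passed the shared rhythm test. Gzma encodes granzyme A, a protease that granules deliver into target cells. In ADX cochleae Gzma was at 2.9999, 3.94 and 2.62 CPM at CT04, 3.56, 3.14 and 4.08 at CT08, 3.64, 4.19 and 3.99 at CT12, 5.26, 5.30 and 5.12 at CT16, 4.27, 3.50 and 6.60 at CT20, and 4.87, 5.26 and 3.43 at CT24. Across sham cochleae Gzma was at 3.49, 3.22 and 4.69 CPM at CT04, 3.08, 3.26 and 3.68 at CT08, 4.09, 4.89 and 5.79 at CT12, 6.24, 5.23 and 8.26 at CT16, 6.12, 5.26 and 5.09 at CT20, and 5.11, 5.95 and 6.56 at CT24. The ADX libraries at CT16 all lay above those at CT12, whereas the sham libraries at these times overlapped. Its difference was 0.64 ± 0.17 in ADX cochleae (peak 18.2 ± 1.04 h, adjusted p = 0.0403) and 0.88 ± 0.17 in sham cochleae (peak 18.7 ± 0.747 h, adjusted p = 0.00236). Prf1 averaged 1.79, 1.98, 2.04, 2.52, 2.76 and 1.92 CPM from CT04 to CT24 in ADX cochleae and 1.86, 1.97, 2.41, 2.93, 2.54 and 2.72 CPM in sham cochleae (SD 0.0594 to 0.506, n = 3 per mean). Prf1, the pore-forming perforin, passed in both statuses, with peaks at 17.6 h in ADX and 18.2 h in sham cochleae. Ctsw averaged 3.86, 4.60, 5.17, 5.59, 5.66 and 4.86 CPM from CT04 to CT24 in ADX cochleae and 5.005, 4.41, 5.21, 6.36, 7.16 and 6.59 CPM in sham cochleae (SD 0.271 to 1.24, n = 3 per mean). Ctsw, a cathepsin of CD8 T and NK cells, passed in both statuses with adjusted p-values of 0.0274 in ADX and 0.000698 in sham cochleae, and its gene overlaps Fibp on the opposite strand. Nkg7 averaged 15.15, 17.7, 16.31, 17.7, 18.2 and 23.2 CPM from CT04 to CT24 in ADX cochleae and 18.1, 17.0, 18.1, 22.3, 20.8 and 26.5 CPM in sham cochleae (SD 0.746 to 4.34, n = 3 per mean). Nkg7, a granule membrane protein whose promoter is printed above, peaked later, at 21.2 ± 1.09 h in sham cochleae (adjusted p = 0.0418), and its ADX curve had an adjusted p of 0.270. Gzmb averaged 0.650, 0.735, 0.831, 0.719, 0.523 and 0.679 CPM from CT04 to CT24 in ADX cochleae and 0.669, 0.709, 0.768, 1.04, 0.879 and 0.895 CPM in sham cochleae (SD 0.0375 to 0.458, n = 3 per mean). Gzmb, granzyme B, did not pass a rhythm test, at 7 to 30 counts per library.

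Among the NK receptors, Ncr1 and Klre1 passed the shared test, Klrd1 passed in sham cochleae, and Klrb1c and Klrk1 passed no rhythm test. Ncr1 averaged 2.84, 4.22, 3.92, 4.76, 5.04 and 4.03 CPM from CT04 to CT24 in ADX cochleae and 4.06, 3.41, 4.39, 5.95, 4.64 and 5.04 CPM in sham cochleae (SD 0.237 to 1.11, n = 3 per mean). Ncr1 encodes NKp46, an activating receptor of NK cells, and its shared peak lay at 17.9 ± 0.798 h with a difference of 0.57 ± 0.12 (adjusted p = 0.00153). Klre1 averaged 0.712, 0.742, 0.769, 1.17, 1.26 and 0.786 CPM from CT04 to CT24 in ADX cochleae and 0.813, 0.613, 0.992, 1.37, 1.02 and 1.26 CPM in sham cochleae (SD 0.101 to 0.454, n = 3 per mean). Klre1, a lectin-like receptor, had a shared peak at 18.6 ± 0.882 h and a difference of 0.85 ± 0.20 (adjusted p = 0.00395), at 6 to 42 counts per library. Klrd1 averaged 2.45, 2.55, 3.46, 2.71, 2.78 and 3.11 CPM from CT04 to CT24 in ADX cochleae and 2.33, 2.19, 2.57, 3.26, 3.26 and 3.56 CPM in sham cochleae (SD 0.0554 to 0.945, n = 3 per mean). Klrd1 encodes CD94, the partner of the NKG2 receptors, and its adjusted p was 0.782 in ADX and 0.0297 in sham cochleae. Klrk1 averaged 1.98, 2.63, 2.93, 2.56, 2.80 and 3.17 CPM from CT04 to CT24 in ADX cochleae and 2.42, 2.95, 2.998, 3.12, 2.75 and 3.22 CPM in sham cochleae (SD 0.179 to 0.817, n = 3 per mean). Klrb1c averaged 2.19, 2.95, 2.20, 2.31, 2.51 and 2.85 CPM from CT04 to CT24 in ADX cochleae and 2.52, 2.20, 2.42, 3.24, 2.45 and 2.91 CPM in sham cochleae (SD 0.201 to 0.551, n = 3 per mean). These encode NKG2D and NKR-P1C, an activating receptor for stress ligands and the NK1.1 lectin.

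Tested within each status, 9 of 34 members were rhythmic in ADX cochleae, or 26.5%, against 9.4% of all genes, and 16 of 34 in sham cochleae, or 47.1%, against 16.08% of all genes. The 9 in ADX cochleae were Cd3e, Cd3g, Cd8a, Cd8b1, Gzma, Prf1, Trbc1, Il2rb and Ctsw, with peaks from 16.01 to 19.8 h. In sham cochleae 8 of these, all but Il2rb, passed with Trbc2, Trac, Nkg7, Klrd1, Ncr1, Tcf7, Tbx21 and Cd5, and the peaks ran from 17.8 to 22.6 h. Those 8 are 8 of the 9 ADX members and 8 of the 16 sham members. Of all genes, 5.62% passed in both statuses. Peaks in the window of 16 to 22 h were found for all 9 ADX members, against 43.9% of all genes that passed in ADX cochleae, and for 15 of the 16 sham members, against 33% of all genes that passed in sham cochleae. As a share of all tested genes, those that passed with a peak in the window made up 4.12% in ADX cochleae and 5.31% in sham cochleae. For the 19 members with a shared rhythm, the fitted difference between peak and trough had a median of 0.58 in ADX cochleae (0.10 to 1.31) and 0.81 in sham cochleae (0.29 to 1.25), and it was larger in sham cochleae for 14 of the 19. The share of all genes with a larger difference in sham cochleae was not counted, so this count cannot be read as particular to the members.

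The longer list in sham cochleae does not show that the rhythm differed between the statuses. The test of the difference in the 24 h curve called 0 of 34 members and 0 of 22556 genes with edgeR, 1 member and 805 genes had an unadjusted p under 0.05, and DESeq2 called 0 members. The 2 counts also depended on the libraries used. Without the 6 CT08 libraries of both statuses, a choice made after seeing the data, 5 members passed in ADX cochleae, 4 in sham cochleae and 18 in the mean of both. Without sham CT08 replicate 1, which had the lowest B lymphocyte score and the second lowest T and NK score of all libraries, 10 members passed in sham cochleae. Without the muscle-rich libraries 5 passed in ADX cochleae and 15 in sham cochleae, and without those rich in Gh 6 passed in ADX and 11 in sham cochleae, while 19 passed in the mean of both each time. In ADX cochleae the count fell to 3 without ADX CT04 replicate 1 or ADX CT16 replicate 3, to 4 without ADX CT04 replicate 3 or ADX CT20 replicate 1, and to 5 without ADX CT08 replicate 3. The count over all genes moved too, to between 1334 and 2430 over the 36 fits that left out 1 library, beside 2120 with all libraries.

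**Figure D3:**
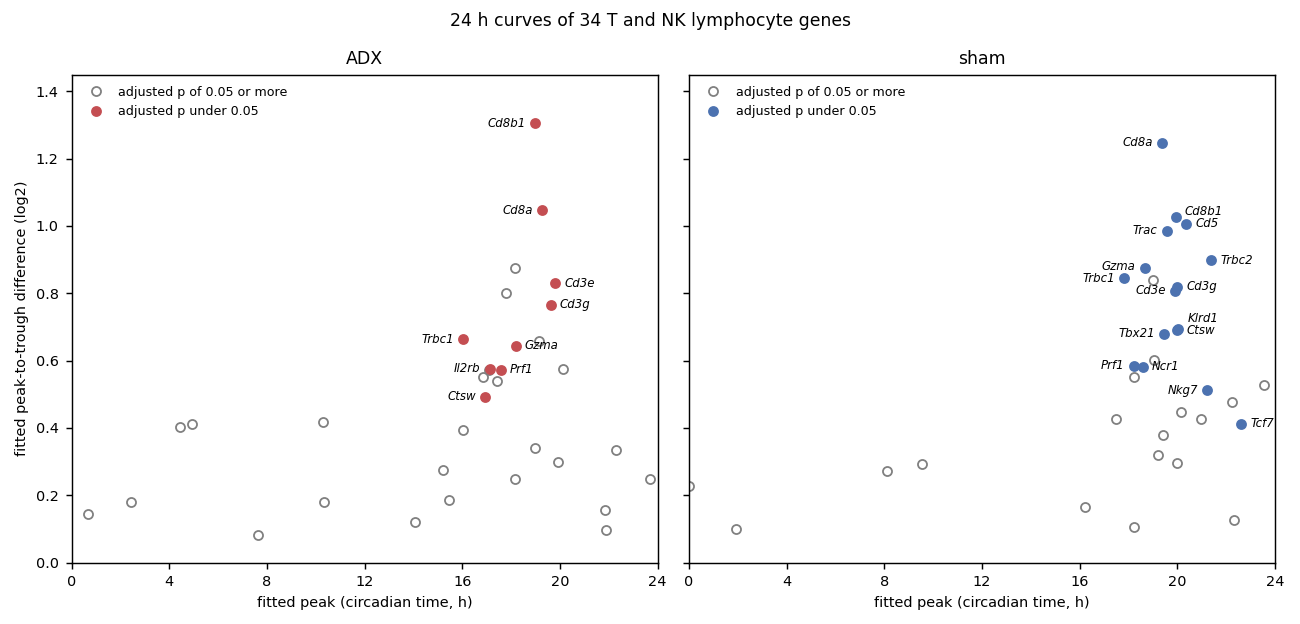
Fitted peak (circadian time, h) against the fitted peak-to-trough difference (log2) of the 24 h curve for 34 members, ADX on the left and sham on the right. Filled, named points passed the test in that status; open points did not. The named points lie between 16.01 and 19.8 h in ADX cochleae and between 17.8 and 22.6 h in sham cochleae.

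The times CT20 and CT08 were also set against each other library by library. All 3 CT20 libraries lay above all 3 CT08 libraries for 3 of 34 members in ADX cochleae (Cd8b1, Klre1 and Trac), against 8.93% of all genes. The ADX count was thus no larger than the share of all genes. In sham cochleae this held for 16 of 34 members, against 11.6% of all genes. For 0 of 34 members did all CT20 libraries lie below all CT08 libraries, in ADX cochleae (10.1% of all genes) or in sham cochleae (10.5%). Cd8b1, Klre1 and Trac were all among the 16 in sham cochleae too. As an example, Trac ran from 2.54 to 3.51 CPM at CT20 against 1.47 to 2.48 CPM at CT08 in ADX cochleae. In sham cochleae it ran from 2.41 to 4.23 CPM at CT20 against 1.54 to 2.11 CPM at CT08.

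Averaged over the 6 times, few of these transcripts differed between ADX and sham cochleae past the threshold. With edgeR, 1 of 34 members passed, Cd2, against 0.718% of all genes (162 of 22556), of which 0.346% were higher and 0.372% were lower in ADX cochleae, and 13 members and 3522 genes had an unadjusted p under 0.05. The fold changes were negative for 22 members and positive for 12, with a median of -0.09 on the log2 scale, beside 0.00 over all genes, of which 50.7% were positive. DESeq2 called 3 members, Cd2, Cd3d and Ctsw.

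Cd2, an adhesion receptor of T and NK cells, was higher in ADX cochleae. The ADX libraries held 15.0, 13.1 and 15.0 CPM at CT04, 17.9, 15.4 and 17.2 at CT08, 11.0, 10.3 and 16.5 at CT12, 11.7, 11.8 and 12.08 at CT16, 10.2, 15.6 and 12.32 at CT20, and 18.2, 12.5 and 13.9 at CT24. The sham libraries held 10.7, 11.95 and 12.002 CPM at CT04, 7.003, 13.1 and 14.0 at CT08, 9.12, 10.9 and 8.33 at CT12, 10.7, 12.08 and 9.49 at CT16, 13.0, 11.4 and 11.96 at CT20, and 12.096, 10.6 and 11.0 at CT24. All ADX libraries lay above all sham libraries at CT04, CT08 and CT24, and the groups overlapped at the other times. Over all times the ADX libraries had 10.2 to 18.2 CPM with a median of 13.5, and the sham libraries had 7.003 to 14.0 CPM with a median of 11.23. The log2 fold change was 0.32 ± 0.08 (SE) with an adjusted p of 0.0429 by edgeR and 0.00681 by DESeq2. The call was near its limit. It was lost, with adjusted p-values up to 0.0840, in 20 of the 36 fits that left out 1 library: ADX CT04 replicates 1 and 3, CT08 replicate 3, CT12 replicate 3, CT16 replicates 1 to 3, CT20 replicate 2 and CT24 replicates 1 and 3, and sham CT04 replicates 1 to 3, CT12 replicate 3, CT16 replicate 3, CT20 replicates 2 and 3 and CT24 replicates 1 to 3. It was also lost without the 3 muscle-rich libraries, although the fold change there was 0.34 (adjusted p = 0.0556), and it held without those rich in Gh (fold change 0.41, adjusted p = 0.0286). Mouse B cells also carry Cd2, and all 15 B lymphocyte markers had a positive fold change, with a median of 0.30. Their part in the Cd2 result was not tested.

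The other members with the larger positive values did not pass. They were Il7r at 0.26 ± 0.11 (adjusted p = 0.230), Lef1 at 0.17 ± 0.07 (0.206) and Thy1 at 0.16 ± 0.05 (0.142). The most negative members were Cd6 at -0.26 ± 0.12 (adjusted p = 0.270) and Cd3d, given above. All 5 tested cytotoxic granule genes were negative too: Gzmb at -0.26 ± 0.16, Gzma at -0.23 ± 0.08, Ctsw at -0.22 ± 0.07, Nkg7 at -0.18 ± 0.06 and Prf1 at -0.15 ± 0.07. None of the 5 passed with edgeR, and the lowest adjusted p was 0.0988, for Ctsw. Gzmm, a granzyme of the second list described below, was positive at 0.12 ± 0.07 (adjusted p = 0.417). Gzma ranged over 2.62 to 6.60 CPM with a median of 4.03 in ADX cochleae and 3.08 to 8.26 CPM with a median of 5.10 in sham cochleae, so that the groups overlapped over most of their range. Of the 5 NK receptors 4 were negative, from -0.16 to 0.00, and of the 7 receptor chains 5 were negative, with a median of -0.01.

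**Figure D4:**
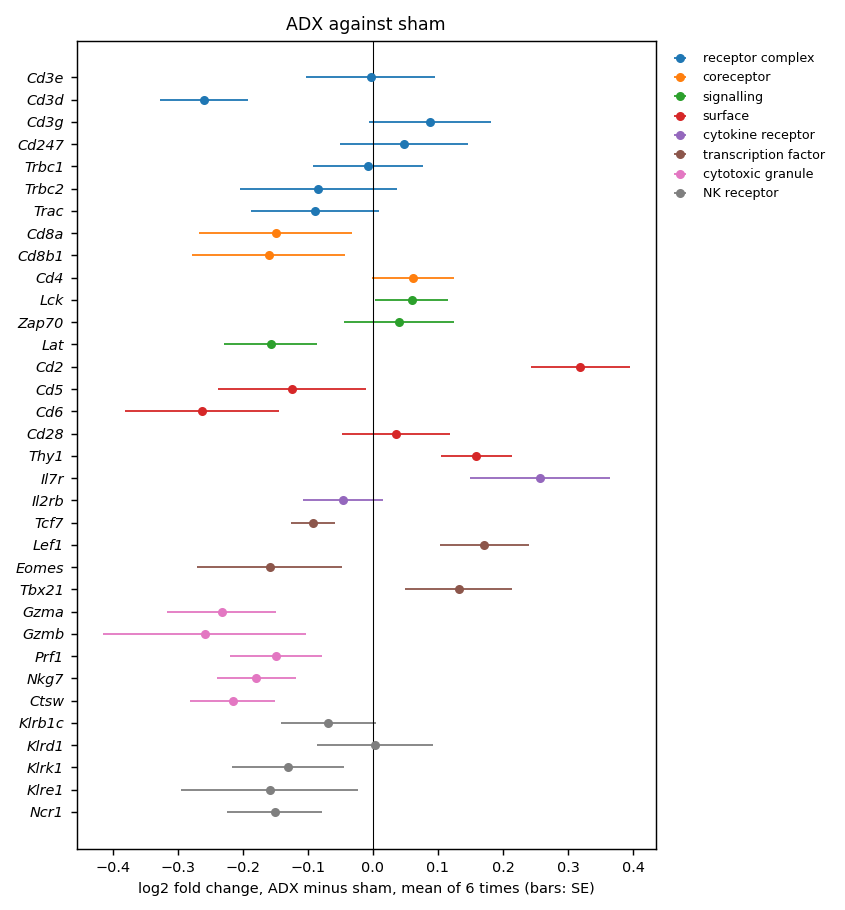
Log2 fold change, ADX minus sham, averaged over the 6 circadian times, for 34 members in order of role; points are estimates and bars are SE. Cd2 at 0.32 lies farthest to the right, Cd3d, Cd6, Gzmb and Gzma farthest to the left at -0.26 to -0.23, and only Cd2 passed the threshold.

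At single times no member passed with edgeR at CT04, CT08, CT12, CT16, CT20 or CT24, where 4, 4, 3, 3, 2 and 7 members had an unadjusted p under 0.05, beside 2097, 966, 1220, 1794, 1690 and 1295 of the 22556 genes. Of all genes, 0.00443% (1 gene) passed at CT20 and 0 at the other 5 times. DESeq2 called 1 member, Tcf7 at CT20, and 0 at the other times. Tcf7 at CT20 had a log2 fold change of -0.40 ± 0.08 with an edgeR adjusted p of 0.0744, and edgeR called it when ADX CT08 replicate 1, ADX CT08 replicate 3 or sham CT20 replicate 1 was left out. The direction of the fold changes differed between the times: 8, 28, 16, 7, 17 and 10 of 34 members were positive from CT04 to CT24, with medians of -0.20, 0.10, -0.01, -0.15, 0.00 and -0.14. Of all genes, 49.5, 48.0, 51.2, 52.5, 49.7 and 52.5% were positive at these times. The lowest T and NK scores of all libraries were those of ADX CT04 replicate 1 (-0.40) and sham CT08 replicate 1 (-0.39). The part of single libraries in these counts was not tested. At CT08, 7 members had all ADX above all sham libraries, against 4.45% of all genes: Cd2, Cd247, Cd3g, Klrb1c, Klrd1, Tbx21 and Trbc1. Only Tcf7 lay the other way there, against 3.93% of genes. At CT16 the count was 0 above (7.1% of genes) and 5 below (6.49%), namely Gzmb, Klrb1c, Klrd1, Lat and Ncr1. Klrb1c and Klrd1 lay on opposite sides at CT08 and CT16, and a change between these 2 times was not tested. At CT24, 2 members lay above (6.03%), Cd2 and Il7r, and 6 below (6.01%), Cd3d, Cd5, Il2rb, Klre1, Prf1 and Trbc2. At CT04 there were 2 above (8.07%) and 4 below (8.46%), at CT12 1 above (5.09%) and 1 below (5.34%), and at CT20 0 above (5.12%) and 2 below (4.13%).

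A second list of 49 further T and NK genes was read beside the members, of which 48 were in the table and 44 were tested. Rhythm was found for 3 of the 44 in ADX cochleae, against 9.4% of all genes, for 7 in sham cochleae, against 16.08%, and for 13 in the mean of both, against 32.5%, so that the share of this list was at or below that of all genes each time. All 7 sham peaks lay between 16 and 22 h, the window chosen after the members' peaks were seen, against 33% of all genes that passed in sham cochleae. Between ADX and sham cochleae, averaged over the 6 times, 0 of the 44 passed with edgeR, and the median log2 fold change was 0.01. Among the smallest p-values for rhythm in sham cochleae were those of Il2rg, Cd7 and Bcl11b. Bcl11b, a factor of T cell commitment, had a difference between peak and trough of 0.72 ± 0.17 (log2, SE) in ADX cochleae (peak 21.4 h, adjusted p = 0.0149) and 0.62 ± 0.17 in sham cochleae (peak 19.0 h, adjusted p = 0.0243). Cd7, a T and NK surface protein, passed in both statuses with adjusted p-values of 0.00923 in ADX and 0.00702 in sham cochleae. Il2rg, the common gamma chain, had 0.15 ± 0.08 in ADX (adjusted p = 0.435) and 0.39 ± 0.08 in sham cochleae (adjusted p = 0.00463). In the status comparison the smallest p-values were those of Slamf6 (log2 fold change 0.30 ± 0.08, adjusted p = 0.0785), Rasgrp1 (0.13 ± 0.04, 0.0997), Il2ra (0.32 ± 0.10, 0.116) and Ccr7 (0.25 ± 0.08, 0.125).

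Markers of other blood cells and tissues were measured in the same libraries, and their rhythm counts stand against 9.4% of all genes in ADX and 16.08% in sham cochleae. All 15 B lymphocyte markers were positive in ADX against sham cochleae and 1 passed, with summed levels of 1501 to 2825 CPM in ADX libraries and 1039 to 2039 CPM in sham libraries, and 2 of the 15 were rhythmic in ADX and 2 in sham cochleae. All 15 neutrophil and granulocyte precursor markers were negative and 3 passed, with sums of 5504 to 10401 CPM in ADX and 7387 to 12569 CPM in sham libraries, and 0 were rhythmic in ADX and 1 in sham cochleae. All 9 erythroid markers were negative, 0 passed, and 0 were rhythmic in either status, with sums of 13061 to 26383 CPM in ADX and 18035 to 31466 CPM in sham libraries. Of 10 macrophage markers, 9 were negative and 0 passed, and 0 were rhythmic in ADX and 2 in sham cochleae. The 5 thymocyte markers were all positive with 0 passing, and 0 were rhythmic in either status, with sums of 86.9 to 193 CPM in ADX and 64.2 to 143.5 CPM in sham libraries. Of 10 skeletal muscle markers 9 were positive with a median log2 fold change of 1.38 and 0 passed, 3 were rhythmic in ADX and 0 in sham cochleae, and the sums were 22.7 to 682 CPM in ADX and 22.8 to 56.8 CPM in sham libraries. All 4 tested pituitary markers were negative with a median of -0.80 and 0 passed, 0 were rhythmic in ADX and 4 in sham cochleae, and the sums were 1.55 to 165.8 CPM in ADX and 1.47 to 1534 CPM in sham libraries. The shared rhythm test called 4 B lymphocyte, 2 neutrophil and granulocyte precursor, 3 macrophage, 1 thymocyte and 1 skeletal muscle marker. It called 0 erythroid and 0 pituitary markers, and 32.5% of all genes passed it. No defining marker of these lists was at 0 in all libraries. The T and NK members summed to 312 to 372 CPM in ADX libraries and 301 to 351 CPM in sham libraries, of which Thy1 was the largest single share at a mean of 116 CPM, and the part that other cells played in the results was not tested.

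**Figure D5:**
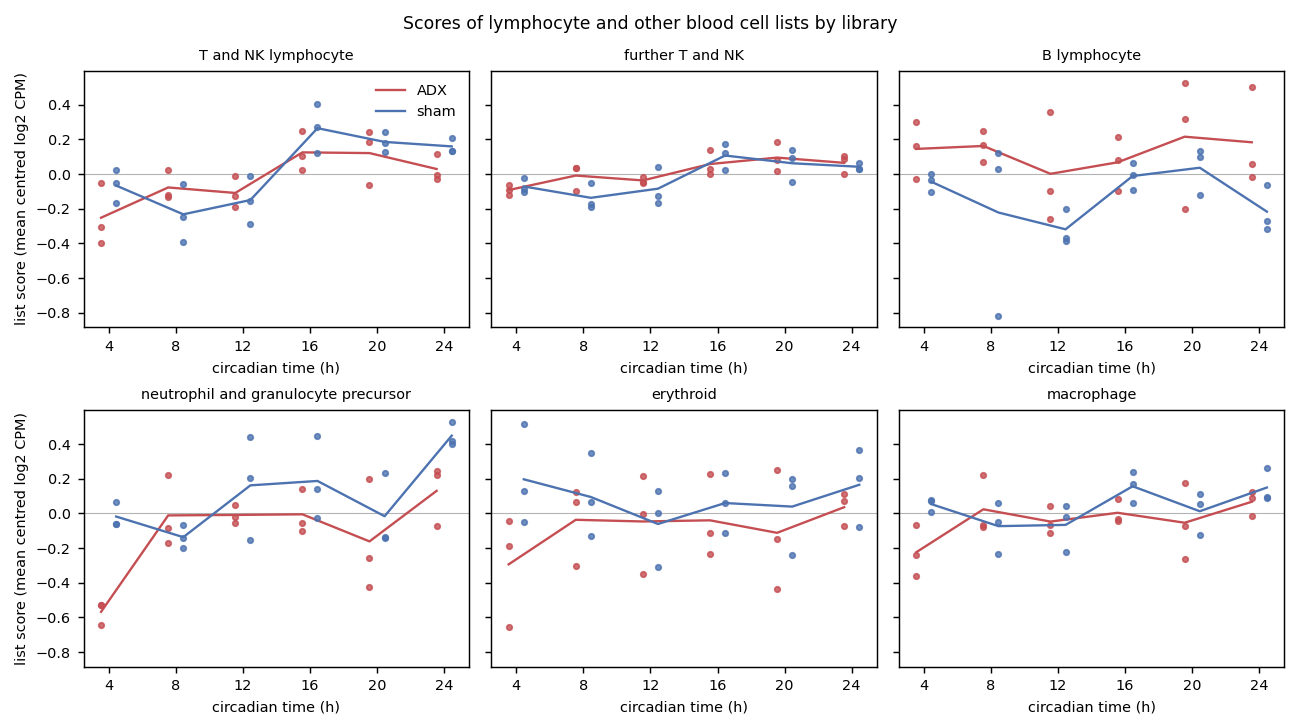
Scores of 6 lists by circadian time (h): the mean over a list's genes of log2 CPM minus the gene's mean over all libraries. Points are libraries, lines join the means of 3, and ADX is drawn left of sham. The T and NK score is highest at CT16 in both statuses (mean 0.13 in ADX, 0.26 in sham), the sham CT08 replicate 1 library has a B lymphocyte score of -0.82, and the 3 ADX CT04 libraries have the lowest neutrophil scores.

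The members did not all move together across libraries. Likeness was measured as Pearson's r over the 36 libraries between a gene's log2 CPM and the mean standardised level of 7 receptor complex and signalling genes (Cd3e, Cd3d, Cd3g, Cd247, Lck, Zap70 and Lat), libraries that share their depth and cell makeup across genes, and it is given as a description. Among the members outside these 7, r was 0.87 for Cd8a, 0.82 for Trbc2, 0.80 for Eomes and 0.79 for Cd8b1. At the other end r was 0.08 for Cd4, -0.05 for Cd2, -0.25 for Lef1, -0.29 for Il7r and -0.48 for Thy1, and the last 4 are the members with the highest fold changes in ADX against sham cochleae. Of 19600 other genes with a mean of at least 0.5 CPM, the 5 most alike were Ltb (r = 0.86), Cdk2ap2 (0.85), Rasgrp2 (0.84), Cfp (0.83) and Gimap4 (0.82).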

How the data were processed

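Whole-cochlea RNA of ADX and sham mice was sequenced with a stranded mRNA kit, per the labels' protocols, in single reads of 100 bases. Reads were aligned with STAR 2.4.0i to mm10, per the submitters' processing notes; no source used here names the counting tool or its strand setting. The deposited table holds raw counts per Ensembl gene and, per the file headers, a gene length that was used for levels per kilobase. Symbols and gene positions came from GENCODE M21 (96.4% of identifiers had a symbol).

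Counts were tested with edgeR 4.0.16 (R 4.3.3; TMM normalization, filterByExpr, quasi-likelihood F tests, Benjamini-Hochberg adjustment over all 22556 tested genes, threshold 0.05). ADX and sham were compared with 12 group means, over the 6 times and at each time. Rhythm was tested as a cosine and sine of 24 h within ADX, within sham, in their mean and in their difference. CPM use the TMM-scaled library sizes; normalization factors were 0.981 to 1.03. The fits were tested on simulated data. Replicate pairs within a group differed beyond counting noise (chi-square per degree of freedom 5.03 to 20.4), so that all 36 libraries were counted. Same-numbered ADX and sham libraries did not deviate together (correlations of -0.103 to 0.112, 1 of 18 over 0.1), so that the numbers do not pair them.

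The members and all other lists were chosen with earlier results of these data known. Members of at least 0.5 CPM were to be named with their values, with 4 further T and NK genes by smallest p in the sham rhythm test, 4 in the status comparison, and the 5 other genes most like the receptor complex. One gene that this rule names is not reported here. Alternatives were DESeq2 1.42.0, no filter on low counts, a replicate block, leaving out each library, the muscle-rich set and the Gh-rich set, a test of all 6 times with 5 degrees of freedom, the times of the column names, and, added later, no CT08 libraries.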

Additional observations from a re-analysis of the deposited data

How the results depend on the processing

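Counts of members past the threshold moved by over 1.5 times under these settings. For ADX against sham over the 6 times, 1 member became 3 with DESeq2 and 0 to 3 with each library left out. At CT20 alone, 0 became 1 with DESeq2 and 0 to 1 with each library left out. For rhythm in ADX cochleae, 9 became 4 with no filter on low counts, 5 without the muscle-rich libraries, 5 without the CT08 libraries (chosen after seeing the data) and 3 to 11 with each library left out. For rhythm in sham cochleae, 16 became 4 without the CT08 libraries and 10 to 19 with each library left out. The shared rhythm gave 18 to 20 members under the other settings, and Cd5 missed the threshold without the CT08 libraries (adjusted p = 0.0520). Thy1 missed it with no filter on low counts, the replicate block or the column names' times, and without the Gh-rich or the CT08 libraries (adjusted p up to 0.116), and was not called by the test of all 6 times. The cause was not tested in any of these cases. The difference in rhythm called 0 members under every setting run, and no value of a named member changed sign once called. The receptor chains other than Cd3d averaged 1.76 to 2.52 CPM, Cd3e with 24 to 91 counts per library, and the part of this depth in the results at single times was not tested. With the replicate number as a block, the pairing being one of numbers only, the counts were 1 member for the mean comparison, 8 for rhythm in ADX, 16 in sham, 18 shared and 0 for the difference. The test of all 6 times gave 6 members in ADX, 15 in sham and 20 shared, and the column names' times gave 9, 14 and 18. In 3 of the 18 same-numbered pairs, the ADX library correlated best with the sham library of its own number among the 3 of that time.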
